A study of Mus musculus with 7 samples.

Results

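Hes1 and the Notch receptors, ligands and target genes were followed as 10 named genes in follicular dendritic cells (FDCs), the stromal cells that display antigen to B cells in lymph node follicles. The genes were Notch1, Notch2, Notch3 and Notch4, the ligand genes Dll4, Jag1 and Jag2, and the target genes Hes1, Hey1 and Heyl. They were taken by symbol from a table of 21176 genes, and 9 of the 10 had a row; Heyl was not analysed here. The set was selected on its pathway membership after the Ngfr KO against WT values of these samples, above all those of Hes1, were known. All differences between genotypes in the 10 genes are therefore given as a description, with no p-value.

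The FDCs came from the popliteal nodes of unimmunized male mice, 8 to 12 weeks old, and were isolated by FACS (fluorescence-activated cell sorting). The groups were wild-type (WT) mice, with 4 samples, and Ngfr knockout mice (Ngfr KO), with 3 samples; Ngfr encodes a receptor for neurotrophins. No other allele or agent was named for either group. The Ngfr allele, the strain, the sort gate and whether samples came from separate animals or pools are not given in the sources used here, so p-values measure only the spread between these samples, which may be technical.

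Notch receptors are single-pass proteins that are cut when a ligand on a neighbouring cell binds them. The freed intracellular part enters the nucleus, joins the DNA-binding protein RBPJ and a Mastermind co-activator, and switches on genes such as those of the HES and HEY repressors. In lymphoid tissue, Delta-like ligands on fibroblastic stromal cells act on T and B cells, and in blood vessels DLL4, NOTCH1 and NOTCH4 take part in sprouting and arterial identity.

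The libraries held 17244925 to 21538400 reads, and each Ngfr KO library was deeper than each WT library. Ngfr, the targeted gene, had values of 0.377, 0.677, 1.30 and 1.14 in WT and 0.305, 0.353 and 0.184 in Ngfr KO, so reads were still assigned to it in all 3 Ngfr KO samples. The FDC marker list was detected in every sample, with all 15 genes above 0. Of the 15, 14 were called higher and 0 lower in Ngfr KO, against 18.3% higher and 15.8% lower among all genes tested. The summed value of this list was 1836 to 5135 over the WT samples and 7984 to 10508 over the Ngfr KO samples. The libraries also held endothelial transcripts: all 16 pan-endothelial markers, among them Pecam1 and Cdh5, were above 0 in every sample. Mitochondrially encoded transcripts took 5.55% to 7.42% of the reads in WT and 3.14% to 4.97% in Ngfr KO. In sorted bulk samples of this kind, fewer cells of a type and less RNA per cell cannot be told apart.

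The stretches before the starts of Notch1 and Notch2, receptor genes that were lower in Ngfr KO, and of Dll4, the ligand gene that was higher, are shown because they were searched for the letters that HES proteins and RBPJ are known to bind. They come from RefSeq (GRCm38.p6), where 7 of the 10 genes had an entry, and run 5′ to 3′ on the gene's strand from 250 to 51 bases before the start. Notch1 (chr2:26503873-26504072, minus strand), Notch2 (chr3:98013288-98013487, plus strand) and Dll4 (chr2:119325534-119325733, plus strand) are given in lower case, with capitals for matches on either strand to the HES N-box CACNAG or the HES class C site CACGCG.
Notch1: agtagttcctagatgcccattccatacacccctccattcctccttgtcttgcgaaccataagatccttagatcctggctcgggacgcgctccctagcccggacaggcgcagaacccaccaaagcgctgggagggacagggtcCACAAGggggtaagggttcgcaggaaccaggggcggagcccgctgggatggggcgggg
Notch2: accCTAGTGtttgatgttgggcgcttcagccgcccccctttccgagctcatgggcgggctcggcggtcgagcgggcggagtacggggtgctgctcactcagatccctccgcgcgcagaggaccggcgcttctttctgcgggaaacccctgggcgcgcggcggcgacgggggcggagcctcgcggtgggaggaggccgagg
Dll4: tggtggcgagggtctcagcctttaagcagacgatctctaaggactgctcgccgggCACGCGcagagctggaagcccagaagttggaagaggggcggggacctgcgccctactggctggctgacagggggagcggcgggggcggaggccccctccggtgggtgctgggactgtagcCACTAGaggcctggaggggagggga
The N-box matches lay 108 to 103 bases before the Notch1 start, 247 to 242 bases before the Notch2 start and 75 to 70 bases before the Dll4 start, and the class C match 195 to 190 bases before the Dll4 start. Of the 7 stretches, those of Notch1, Notch2, Notch3 and Dll4 held an N-box match, those of Dll4 and Jag1 a class C match, and those of Notch4 and Jag2 neither. Among all 32851 RefSeq stretches of the same length, 31.1% held an N-box match and 5.74% a class C match. The RBPJ core TGGGAA, present in 17.9% of all such stretches, matched in none of the 7 members' stretches on either strand. These 7 are the receptor and ligand genes. The target genes Hes1, Hey1 and Heyl had no entry and were not searched. The Dll4 stretch includes 31 exon bases of the antisense gene Gm14207 (GENCODE M21). Annotated exons also cover 74 bases of the Jag1 stretch and all 200 bases of the Jag2 stretch, which lies inside the GENCODE gene. The RefSeq start of Notch1 used here lies inside the GENCODE gene, which begins further upstream. These are matches of letters, not evidence of binding.

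Hes1, whose product is a transcriptional repressor and a standard readout of Notch signalling, was the most abundant of the genes in WT. Among the 5 that passed the filter on low values (1 or more in 3 or more samples), it had the largest fold between genotypes. Hes1 (ENSMUSG00000022528) is a protein-coding gene on chromosome 16 from 30064384 to 30067796, plus strand (GRCm38, GENCODE M21). Its normalised value was 19.2, 16.1, 32.9 and 33.4 in WT replicates 1 to 4, and 2.85, 2.18 and 7.46 in Ngfr KO replicates 1 to 3. The groups did not overlap: WT replicate 2 was the lowest WT sample, and Ngfr KO replicate 3, the highest of its group, still lay below it. These values rest on 4304 to 8755 reads per WT library and 642 to 1862 per Ngfr KO library. The mean was 25.4 ± 9.0 (WT, SD, n = 4) and 4.16 ± 2.87 (Ngfr KO, SD, n = 3), 6.11-fold lower, and the log2 difference of value + 1 was -2.42 (SE 0.34). By size of fall on this scale, which compresses the changes of low genes, it ranked 6 among 8326 genes tested. As the set was chosen with these values known, the rank carries no weight of its own.

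Hes1 also varied within each genotype. WT replicates 3 and 4 were 2.07 times as high as the lowest WT sample at most, and the Ngfr KO samples spanned 3.42-fold. Its SD over the WT samples on the log2(value + 1) scale, 0.52, was larger than that of 95.9% of the genes tested, whose median was 0.21. Leaving out Ngfr KO replicate 3 gave a log2 difference of -2.85, and leaving out replicate 2 gave -2.14.

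Hey1, a HES-related repressor gene, was near the lower end of what these libraries could measure. It had 42, 25, 43 and 101 reads in WT and 44, 35 and 0 in Ngfr KO, or values of 0.163, 0.0936, 0.187 and 0.385 against 0.160, 0.119 and 0. A count of 0 in Ngfr KO replicate 3 allows a value of up to 0.0120, taken as 3 reads and covering counting error only. The groups overlapped, and no difference in Hey1 was detectable at this depth.

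**Figure D1:**
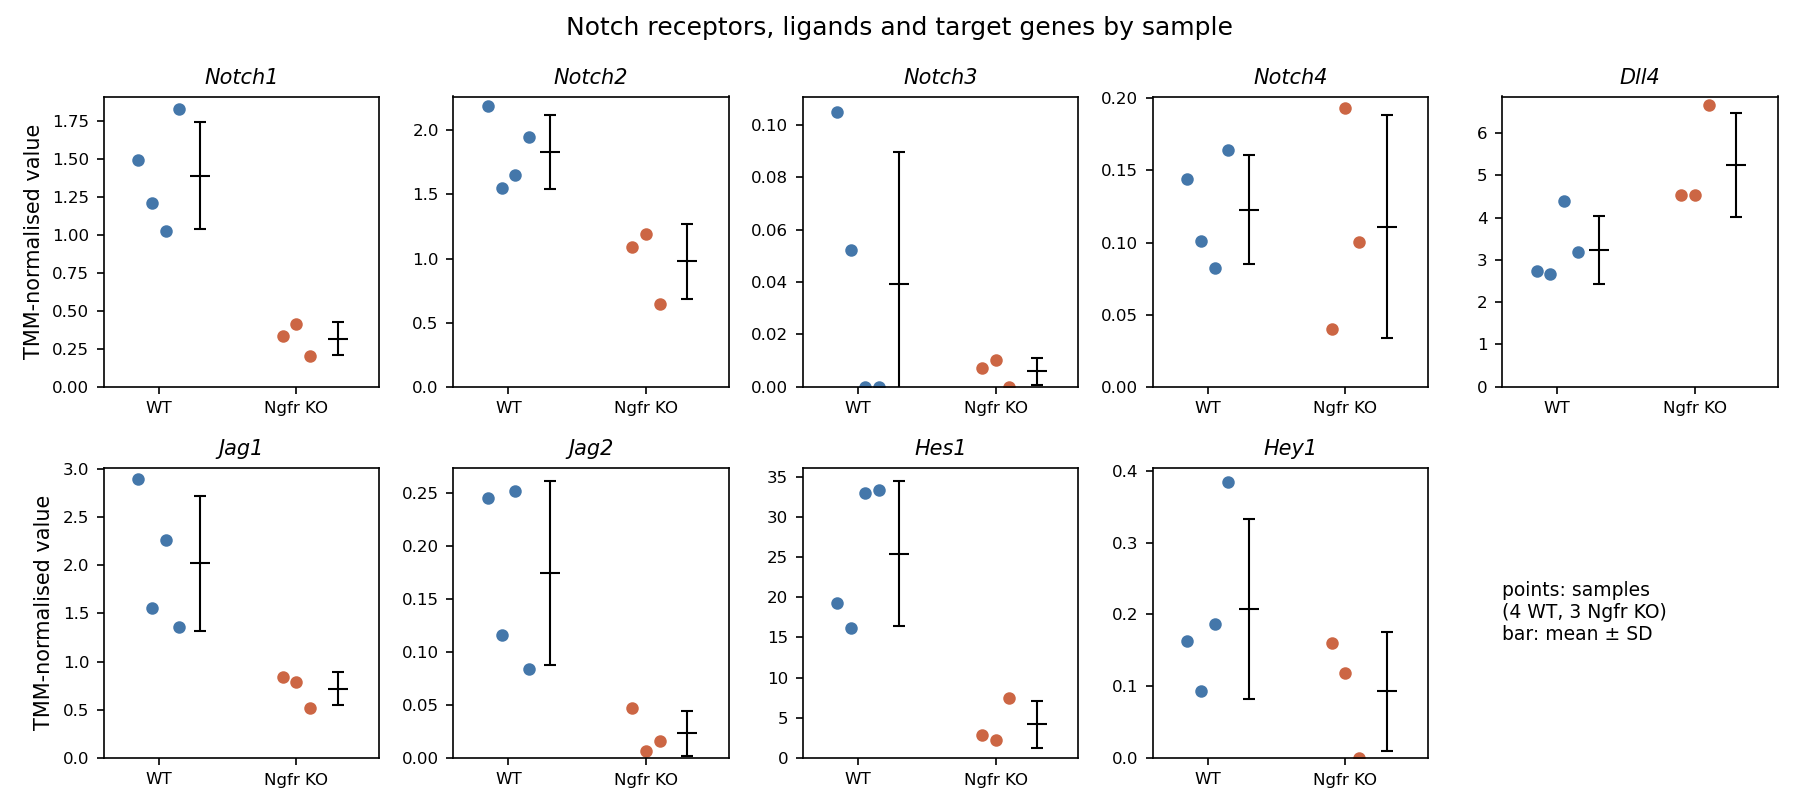
Normalised value (vertical axis, TMM units, a scale of its own for each gene) of the 9 genes in each WT and Ngfr KO sample; points are samples and bars the mean ± SD, cut off at 0. Hes1, Notch1, Notch2, Jag1 and Jag2 lie lower in all Ngfr KO samples than in all WT samples, Dll4 lies higher, and Notch3, Notch4 and Hey1 overlap.

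Among the receptors, Notch1 and Notch2 together carried most of the reads in every sample. Notch1, the receptor needed for T-cell fate and active in endothelium, is on chromosome 2 from 26457903 to 26516663, minus strand. Its value was 1.49, 1.21, 1.02 and 1.83 in WT and 0.330, 0.414 and 0.200 in Ngfr KO. Every Ngfr KO sample was below every WT sample, by more than a factor of 2.

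Means for Notch1 were 1.39 ± 0.35 (SD, n = 4) and 0.315 ± 0.108 (SD, n = 3), 4.41-fold lower in Ngfr KO. On the log2(value + 1) scale the difference was -0.85 (SE 0.15), and edgeR on reads recovered from the values gave -2.05, since a pseudocount of 1 is worth 230 to 295 reads and compresses changes of genes at this level. Exons of the antisense genes 0610009E02Rik and Gm13568 share 1068 and 414 bases with Notch1, and without strand their reads cannot be told apart. 0610009E02Rik had values of 0.806, 0.460, 0.104 and 0.992 in WT and 0.105, 0.0882 and 0.124 in Ngfr KO, which overlapped through WT replicate 3. Gm13568 had a value of 1.08 ± 0.35 (WT, SD, n = 4) and 0.109 ± 0.043 (Ngfr KO, SD, n = 3), without overlap.

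Notch2, the receptor that marginal zone B cells depend on, lies on chromosome 3 from 98013527 to 98150361, plus strand. It had values of 2.19, 1.55, 1.65 and 1.95 in WT and 1.09, 1.19 and 0.645 in Ngfr KO. Between the groups there was no overlap, with 1.55 and 1.19 as the nearest values. Means were 1.83 ± 0.29 (SD, n = 4) and 0.977 ± 0.292 (SD, n = 3), 1.88-fold lower in Ngfr KO, and the log2 difference was -0.52 (SE 0.16). With each sample's trend with exon length removed, the difference of Notch2 was -0.32 and it was no longer called, while that of Notch1 was -0.58 and was called. Notch2 was also not called by edgeR (-0.82) or on leaving out WT replicate 1, Ngfr KO replicate 1 or Ngfr KO replicate 3 (-0.47, -0.57 and -0.40). The gene Gm42820, on the same strand, shares 541 exon bases with Notch2, and reads from these bases cannot be told apart. Gm42820 had values of 0.389 ± 0.314 (WT, SD, n = 4) and 0.123 ± 0.031 (Ngfr KO, SD, n = 3), which overlapped.

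Notch3, the receptor of vascular smooth muscle and pericytes, and Notch4, an endothelial receptor, had few reads. Notch3 had 27, 14, 0 and 0 reads in WT and 2, 3 and 0 in Ngfr KO, and a count of 0 allows values of up to 0.0130 and 0.0114 in WT replicates 3 and 4. Most mural cell markers (Pdgfrb, Cspg4, Myh11, Acta2, Abcc9, Rgs5, Des and Kcnj8) were highest among WT replicates 1 to 4 in replicate 4. Only Tagln and Mcam were highest in replicate 1. Tagln, a smooth muscle gene, had values of 0.930, 0.281, 0.504 and 0.00381, highest where Notch3 was highest. Rgs5, a pericyte gene with the highest value of the list, had values of 12.3, 23.9, 25.1 and 39.7, highest in replicate 4, where Notch3 had no reads. Notch4 had values of 0.144, 0.101, 0.0826 and 0.164 in WT and 0.0399, 0.193 and 0.1001 in Ngfr KO, so that the Ngfr KO samples held both the lowest and the highest value. Neither gene passed the filter on low values.

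The ligand genes went in opposite directions. Dll4, the Delta-like ligand best known from lymphoid stroma and from sprouting endothelium, lies on chromosome 2 from 119325784 to 119335962, plus strand. Its value was 2.74, 2.66, 4.40 and 3.19 in WT and 4.53, 4.53 and 6.66 in Ngfr KO. The ranges did not overlap, but WT replicate 3, at 4.40, came close to the lowest Ngfr KO samples, at 4.53.

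For Dll4, means were 3.25 ± 0.81 (WT, SD, n = 4) and 5.24 ± 1.23 (Ngfr KO, SD, n = 3), 1.61 times as high, with a log2 difference of 0.56 (SE 0.19). It was called higher in the fit reported here and in 9 of 18 alternatives. It was not called by edgeR on the recovered reads (log2 difference 0.75) or on leaving out any single library other than WT replicate 3 (0.40 to 0.63). The antisense gene Gm14207 shares 214 exon bases with Dll4 and had values of 2.87 ± 0.61 (WT, SD, n = 4) and 3.46 ± 0.60 (Ngfr KO, SD, n = 3), which overlapped.

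Jag1, a ligand of the Serrate type, is on chromosome 2 from 137081456 to 137116644, minus strand. It had values of 2.89, 1.56, 2.26 and 1.36 in WT and 0.842, 0.787 and 0.521 in Ngfr KO, with every Ngfr KO sample below every WT sample. Means were 2.02 ± 0.70 (SD, n = 4) and 0.716 ± 0.172 (SD, n = 3), 2.82-fold lower in Ngfr KO, and the log2 difference was -0.79 (SE 0.19).

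The related gene Jag2 was scarce, with 63, 31, 58 and 22 reads in WT and 13, 2 and 4 in Ngfr KO. Its values, 0.245, 0.116, 0.252 and 0.0839 against 0.0472, 0.00678 and 0.0160, did not overlap. Jag2 failed the filter and is given by its values only.

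Levels of different genes were compared as reads per kilobase of merged exon, scaled to the same total in each sample. In WT, Hes1 stood first at 369 ± 125 (SD, n = 4), followed by Dll4 at 24.9 ± 4.6, Jag1 at 10.3 ± 3.9, Notch2 at 5.10 ± 1.11 and Notch1 at 2.93 ± 0.89. The WT ranges of neighbours in this order did not overlap down to Notch1. From Notch1 on, through Hey1 (1.91 ± 1.21), Jag2 (0.740 ± 0.365), Notch4 (0.460 ± 0.165) and Notch3 (0.151 ± 0.196), each neighbour's range overlapped the next.

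In Ngfr KO, Hes1 was at 54.8 ± 28.4 (SD, n = 3) and Dll4 at 38.3 ± 2.7, and their ranges overlapped, with Hes1 the higher in 2 of 3 samples. Jag1 at 3.63 ± 1.30 was clear of Dll4, and below it every neighbouring pair overlapped. Hes1 per kilobase was thus above every other member in all 4 WT samples, and Dll4 was the gene nearest to it in both genotypes.

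**Figure D2:**
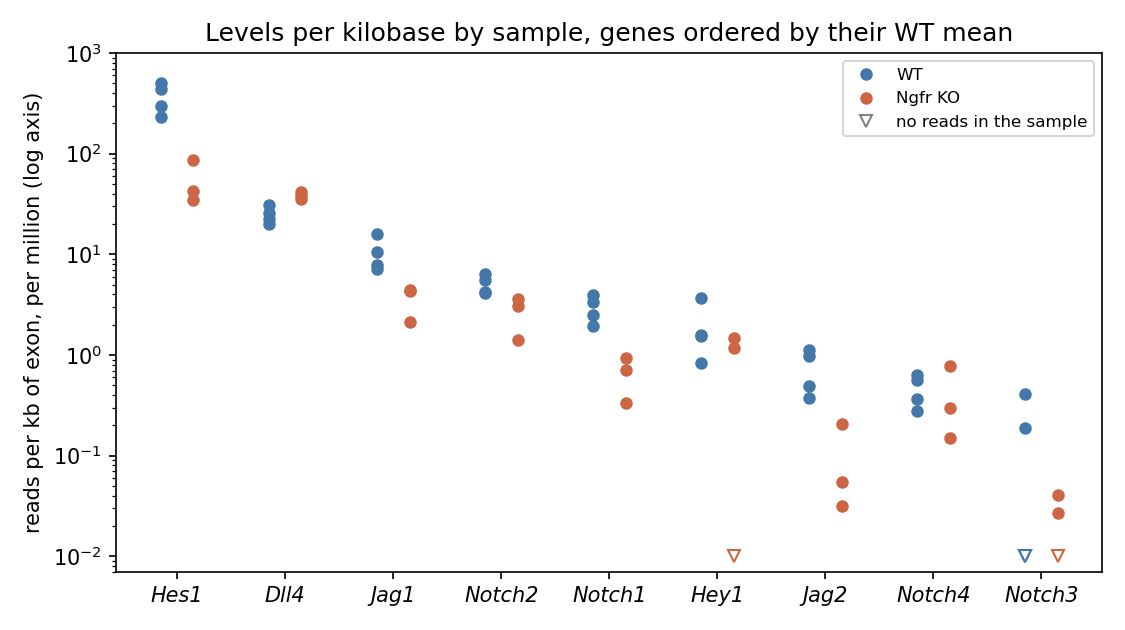
Reads per kilobase of exon, scaled to the same total in each sample (vertical axis, logarithmic) for each gene (horizontal axis, in order of the WT mean), with 1 point per sample and open triangles for samples with no reads. Hes1 is at 369 ± 125 in WT and 54.8 ± 28.4 in Ngfr KO, where it meets the range of Dll4, at 38.3 ± 2.7.

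On the per-kilobase scale the shares of the 4 receptor genes, and of the ligand genes Dll4, Jag1 and Jag2, were examined in each sample; Dll1 was not part of the ligand sum. Notch2 made up 59.5% ± 4.3 of the summed receptor level in WT (SD, n = 4) and 71.4% ± 5.6 (Ngfr KO, SD, n = 3), and Notch1 made up 33.7% ± 3.9 and 17.2% ± 0.8. Neither share overlapped between genotypes. The share of Notch4 overlapped, at 4.36% to 6.18% over WT samples and 3.80%, 14.5% and 14.4% in Ngfr KO replicates 1 to 3. The summed receptor level itself was 8.64 ± 2.15 in WT and 3.78 ± 1.65 in Ngfr KO, without overlap.

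The sum of Dll4, Jag1 and Jag2, by contrast, overlapped between genotypes, at 35.9 ± 6.3 (WT, SD, n = 4) and 42.1 ± 1.6 (Ngfr KO, SD, n = 3). Dll4 made up 57.2%, 70.8%, 72.9% and 77.2% of it in WT and 88.6%, 89.6% and 94.97% in Ngfr KO. The ratio of Dll4 to Jag1 was 1.43, 2.58, 2.94 and 3.55 in WT and 8.15, 8.71 and 19.4 in Ngfr KO, so the lowest Ngfr KO ratio was above the highest WT ratio.

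**Figure D3:**
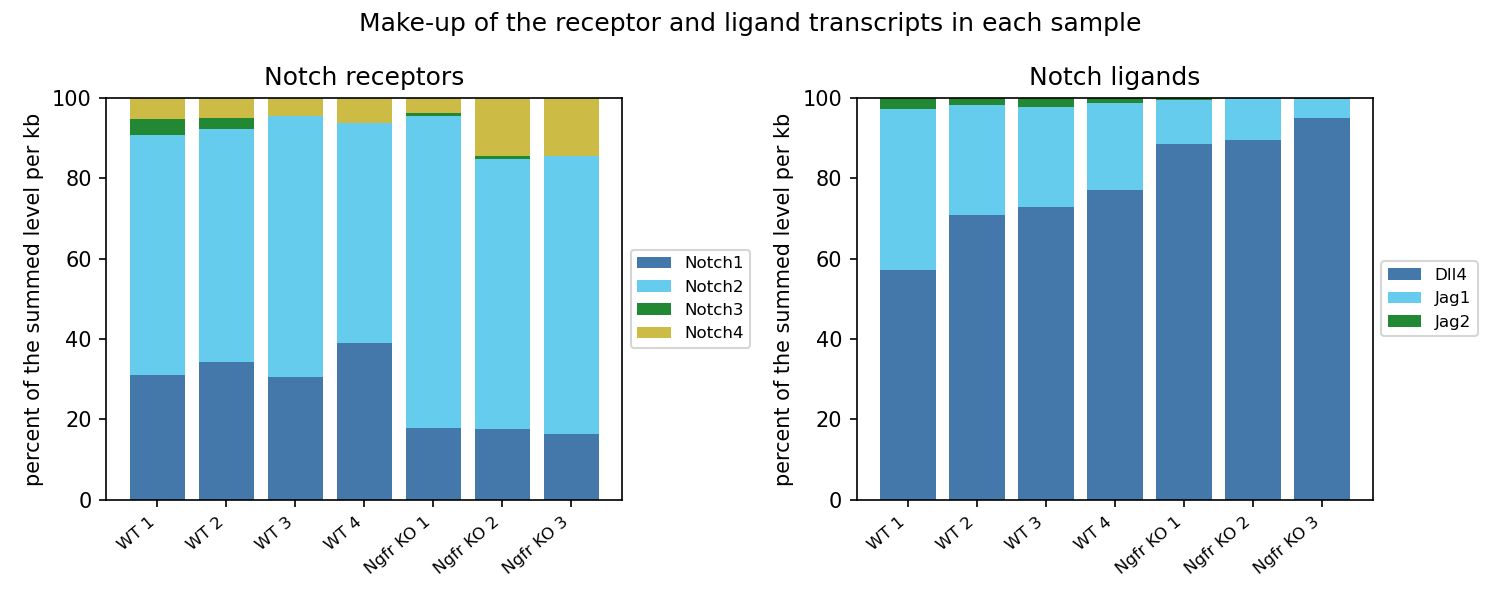
Share of each gene (vertical axis, percent) in the summed per-kilobase level of the Notch receptors (left) and of the ligand genes Dll4, Jag1 and Jag2 (right), with 1 bar per sample (horizontal axis). Dll4 takes 57.2% to 77.2% of the summed level of these 3 ligand genes in WT samples and 88.6% to 94.97% in Ngfr KO samples. Notch1 takes 33.7% ± 3.9 of the receptor level in WT samples and 17.2% ± 0.8 in Ngfr KO samples.

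Of the 9 genes with a row, 5 passed the filter, and limma called 4 of these lower (Hes1, Notch1, Notch2 and Jag1) and 1 higher (Dll4). Among all 8326 genes tested, 34.2% were called, 18.3% higher and 15.8% lower, and 40.9% had groups that did not overlap, against all 5 of these genes. With edgeR, which tested 8 of the 9, 3 were called (Hes1, Notch1 and Jag1), where 15.2% of its 16751 genes were called. Since the genes were chosen with this contrast known, these counts carry no weight of their own.

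Other genes of the pathway were taken from lists by role, drawn up with earlier results of these data known. Of 75 such genes, 68 had a row and 42 passed the filter. limma called 24 of the 42 (57.1%), 17 lower and 7 higher. Among all genes tested, 34.2% were called, 15.8% lower and 18.3% higher. Groups did not overlap for 23 of the 42, against 40.9% of all genes tested, and for 20 of the 24 called. The counts by role below stand beside the same shares. As the lists were drawn up with results known, these counts carry no weight of their own. The median log2 difference of the 42 was -0.32, against 0.02 for all genes tested. edgeR called 11 lower and 5 higher among 63, where 15.2% of all its 16751 genes were called. Among the genes called by limma, Epn2, Gxylt2, Xxylt1, Ep300, Spen, Hdac1 and Cir1 missed the edgeR threshold, with edgeR adjusted p-values of 0.0553 to 0.0958. Without a filter the counts were 10 lower and 2 higher. The lowest counts on leaving out a single library came without Ngfr KO replicate 2, with 10 called lower and 2 higher, and without Ngfr KO replicate 1 the number called higher was 4.

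Of 9 listed genes of the nuclear complex that the receptor fragment joins, 6 were tested, and limma called 4 lower and 1 higher. Maml2, a Mastermind co-activator, fell from 2.23 ± 0.52 (WT, SD, n = 4) to 0.859 ± 0.136 (Ngfr KO, SD, n = 3), a log2 difference of -0.78 (SE 0.16, limma adjusted p = 0.00427). The histone acetyltransferase genes Kat2b, Crebbp and Ep300 had log2 differences of -0.86, -0.77 and -0.57 (limma adjusted p = 0.00325, 0.00315 and 0.0258), and Snw1, a splicing and transcription co-factor, rose by 0.67 (limma adjusted p = 0.0180). Rbpj, through which all receptors act on DNA, had values of 4.83 ± 0.62 (WT, SD, n = 4) and 4.54 ± 1.87 (Ngfr KO, SD, n = 3), with overlapping groups (log2 difference -0.12, SE 0.21, limma adjusted p = 0.671).

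Co-repressor genes, whose products hold targets silent when no receptor fragment is present, were called lower in 6 of 10 cases and higher in 1. Ncor1, Tle4, Tle1, Ctbp1, Cir1 and Spen had log2 differences of -0.79, -0.70, -0.64, -0.60, -0.57 and -0.49, with limma adjusted p-values of 0.00330 (Tle4) to 0.0281 (Cir1). The histone deacetylase gene Hdac1 was called higher (0.64, limma adjusted p = 0.0377), with overlapping groups.

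Genes for receptor maturation and cleavage were divided. Poglut1, which adds O-glucose to the receptors' extracellular repeats, rose from 4.62 ± 0.80 (WT, SD, n = 4) to 15.1 ± 4.3 (Ngfr KO, SD, n = 3), a log2 difference of 1.496 (SE 0.20, limma adjusted p = 5.14e-04). It was called higher in all 19 alternatives. Gxylt2 and Xxylt1, which extend that sugar with xylose, had log2 differences of -0.59 and -0.54 (limma adjusted p = 0.0397 and 0.0286), and the groups of Xxylt1 overlapped. Among 6 tested cleavage genes, the γ-secretase subunit gene Ncstn was called higher, without overlap between the groups (0.68, limma adjusted p = 0.0162), and 0 were called lower. Adam10, the protease of the first ligand-induced cut, was not called (log2 difference -0.14, SE 0.20, limma adjusted p = 0.594).

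On the ligand side, the ubiquitin ligase genes that make ligands competent moved apart: Mib2 rose from 0.886 ± 0.366 (WT, SD, n = 4) to 2.84 ± 0.64 (Ngfr KO, SD, n = 3), a log2 difference of 1.03 (SE 0.18, limma adjusted p = 0.00169), and Mib1 had a log2 difference of -0.69 (SE 0.18, limma adjusted p = 0.0111). Epn2, an endocytic adaptor, was called lower with overlapping groups (-0.51, limma adjusted p = 0.0458). Egfl7, a secreted endothelial protein that binds Notch, fell from 24.1 ± 3.1 to 10.5 ± 4.1, a log2 difference of -1.19 (SE 0.24, limma adjusted p = 0.00388), and kept that call in all 19 alternatives. Dll1, another Delta-like ligand, failed the filter, with 131 to 309 reads in WT and 136 to 185 in Ngfr KO. None of 6 tested genes of receptor turnover, such as Numb and Itch, was called by limma; edgeR called none of them either.

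Other transcriptional targets were examined beside Hes1. Dtx1, a Notch-induced ubiquitin ligase gene, fell from 1.66 ± 0.38 (WT, SD, n = 4) to 0.354 ± 0.171 (Ngfr KO, SD, n = 3), a log2 difference of -0.97 (SE 0.16, limma adjusted p = 0.00137). Efnb2, an arterial endothelial target, fell from 6.19 ± 1.44 to 1.70 ± 0.84, a log2 difference of -1.44 (SE 0.22, limma adjusted p = 9.60e-04). The growth and cell-cycle genes Myc and Ccnd1, targets in some tissues, were not called, with log2 differences of -0.12 (SE 0.28) and -0.13 (SE 0.17, limma adjusted p = 0.748 and 0.554). Hes6, which antagonizes HES1 in neural cells, was the only tested gene of the other HES and HEY family and rose by 0.54 (SE 0.15, limma adjusted p = 0.0169). Nrarp, a feedback inhibitor of the pathway, had at most 45 reads, and Hey2 at most 6, so differences in them were not detectable at this depth.

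**Figure D4:**
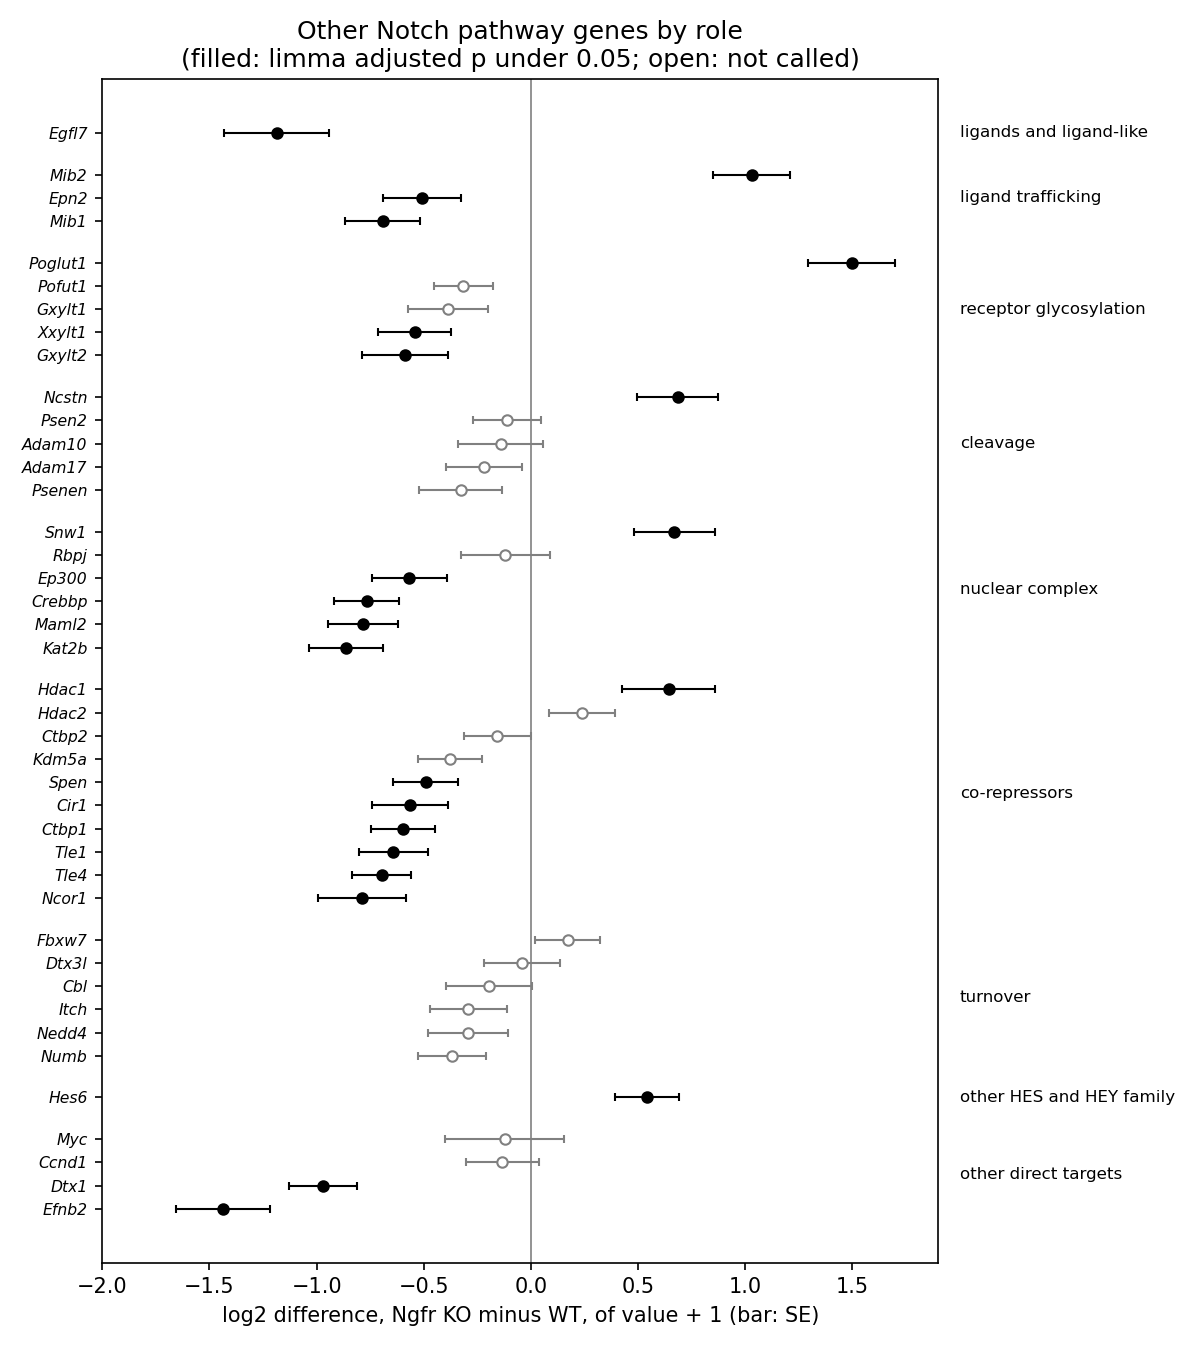
Log2 difference of value + 1, Ngfr KO minus WT (horizontal axis), with its standard error for 41 of the tested pathway genes, grouped by role (vertical axis); filled points are genes with a limma adjusted p under 0.05. Of the 23 filled points, 17 lie left of 0, among them Efnb2, Egfl7 and Dtx1, and 6 lie right of it, led by Poglut1 and Mib2.

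Transcript length moved with these differences. Among all tested genes with at least 5 kb of exon, 21.7% were called lower and 10.1% higher, and among shorter genes 11.04% lower and 25.0% higher. Of the 24 tested pathway genes with at least 5 kb of exon, 12 were called lower and 1 higher, and of the 18 shorter ones 5 lower and 6 higher. With the trend with exon length removed in each sample, an alternative chosen after seeing the data, limma called 15 pathway genes lower and 4 higher, and Hes1, which has 2037 bases of exon, had a log2 difference of -2.64.

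Endothelial markers moved in the same direction as Hes1, Notch1 and Jag1. Of 16 pan-endothelial markers, 14 were tested and all 14 were called lower, with a median log2 difference of -1.38. Among all genes tested, 15.8% were called lower and 18.3% higher, the shares beside which the counts of each list stand. The summed value of the pan-endothelial markers was 157 to 220.0 over the WT samples and 41.1 to 69.4 over the Ngfr KO samples. Within WT the endothelial sum was 220.0, 175, 195 and 157 in replicates 1 to 4. Jag1 took the same order over these 4 samples, while Hes1 and Notch1 were both highest in replicate 4, where the sum was lowest. Of 5 tested lymphatic endothelial markers 4 were called lower and 0 higher. Dll4 went the other way, and so did 2 marker lists. Of 15 tested FDC markers, 14 were called higher and 0 lower, with a median log2 difference of 1.41. Of 7 tested fibroblastic reticular markers, 4 were called higher and 0 lower, with a median of 0.53, although Dpt was at 0 in some samples. The summed value of that list was 77.3 to 153 over the WT samples and 243 to 350.5 over the Ngfr KO samples, most of it from Dcn and Ccl19. Pdpn, Col1a2 and Lum were not called, with log2 differences of -0.53, 0.01 and 0.53. Within WT this sum was 77.3, 91.0, 99.5 and 153 in replicates 1 to 4, highest in replicate 4, while Dll4 was highest in replicate 3. The sums of the B-cell markers (20.8 to 32.4 against 16.0 to 50.0) and mural cell markers (25.4 to 62.2 against 48.4 to 80.5) overlapped between genotypes. Of 6 tested mural cell markers, 3 were called higher (Myh11, Des and Kcnj8) and 0 lower, and of 6 tested B-cell markers 1 was called higher and 0 lower. The part of these cell types in the differences of the Notch genes was not tested.

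**Figure D5:**
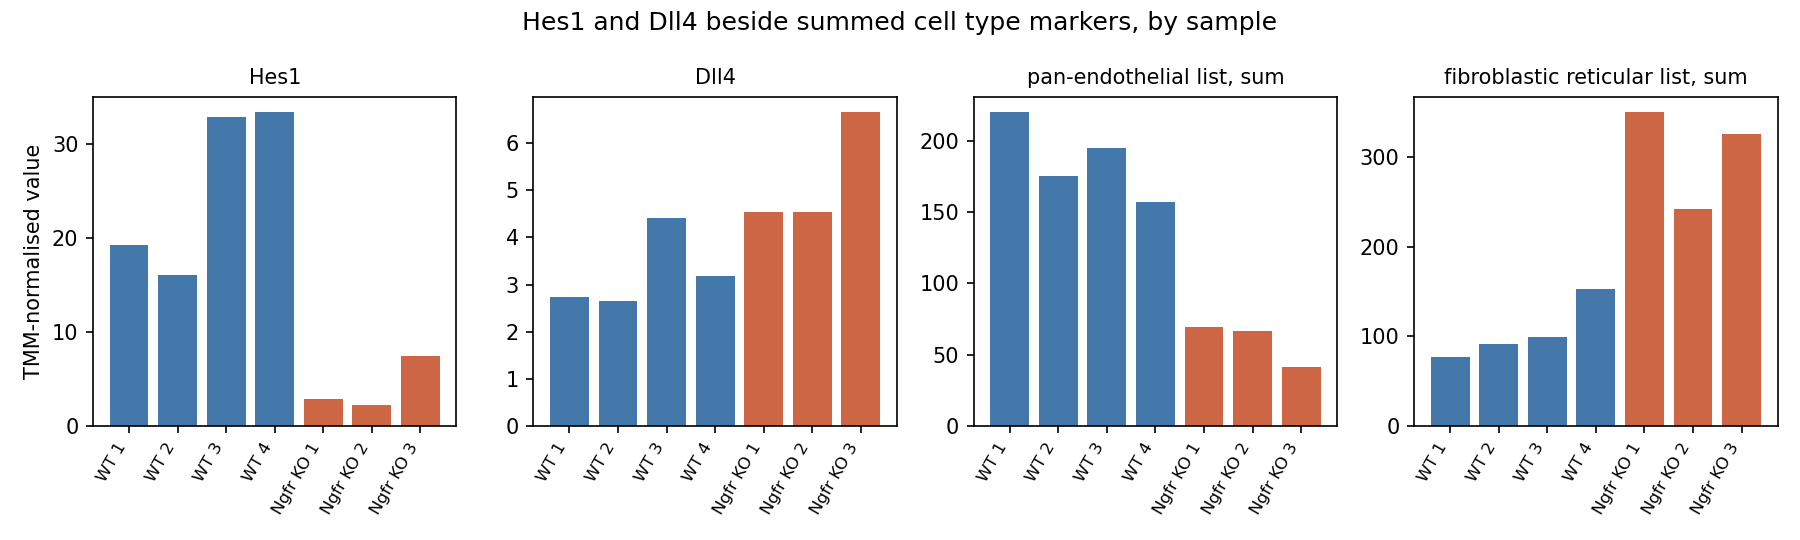
Normalised value of Hes1 and Dll4 and summed normalised value of the pan-endothelial and fibroblastic reticular marker lists (vertical axes, TMM units, a scale of its own for each panel) in each sample (horizontal axis; blue WT, orange Ngfr KO). The endothelial sum is 157 to 220.0 over the WT samples and 41.1 to 69.4 over the Ngfr KO samples.

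The genes most like Hes1 were ranked by the root mean square difference of their log2(value + 1) profile over the 7 samples, each gene centred on its own mean. In order they were Syn3 (0.38), a synapsin gene, Cldn11 (0.54), a tight junction gene, Dusp2 (0.57), a phosphatase gene of MAP kinase signalling, Klf4 (0.57), a Krüppel-like transcription factor gene, and the predicted gene Gm10800 (0.59). Syn3 had values of 10.96, 7.62, 11.1 and 8.67 in WT and 1.44, 0.580 and 2.47 in Ngfr KO. It is uncertain, because its annotated exons share 1733 bases with Timp3 on the opposite strand, whose value was 74.1 ± 20.4 (WT, SD, n = 4) and 32.3 ± 4.7 (Ngfr KO, SD, n = 3). Klf4 had values of 21.6, 19.0, 30.0 and 16.5 in WT and 2.65, 4.13 and 3.30 in Ngfr KO, so that, unlike Hes1, it was lowest among WT samples in replicate 4. Among the other tested Notch genes the nearest to Hes1 was Notch1, at 0.97, with 469 tested genes nearer to Hes1, Hes1 itself counted. Among the tested Notch genes, Notch1 and Notch2 were nearest to each other, at 0.20, and Jag1 was nearest to Notch2, at 0.24. Many tested genes outside the set were nearer still: 152 to Notch1, 445 to Notch2 and 349 to Jag1, each gene itself counted. The pseudocount also shrinks such distances between 2 genes that are both at these low values. Between Hes1 and Notch1 it can widen the distance. It compressed the change of Notch1 (log2 difference -0.85, edgeR -2.05) more than that of Hes1 (-2.42, edgeR -2.57).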

How the data were processed

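The deposited table gives a normalised signal for each gene in the 7 samples, under a name that calls it TMM (trimmed mean of M values). SMART-Seq v4 cDNA went into Nextera XT libraries, per the labels' protocols, and the submitters' processing notes name bcl2fastq 2.20.0.422 and the build mm10. Aligner, counting program, strand setting and annotation are not given in the sources used here. Dividing a sample's values by their smallest step gave whole reads for 100% of them (within 0.01 steps), and no gene length is divided out. Values of 1 stand for 230 to 295 reads, and 3 reads for 0.0102 to 0.0130.

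Ngfr KO and WT were compared with limma 3.58.1 in R 4.3.3 on log2(value + 1), using eBayes and its trend option and no covariate, for genes at 1 or more in 3 or more samples. Benjamini-Hochberg adjusted p-values under 0.05 over all 8326 genes were called. Since the pseudocount is large, log2 differences of low genes are understated. Alternatives included the quasi-likelihood test of edgeR 4.0.16 on those reads, which called 2551 genes, DESeq2 1.42.0 size factors and thinned reads. Exon lengths and coordinates came from GENCODE M21, where 21137 identifiers matched. The 10 genes and all lists were chosen with earlier results of these data known. Genes named are the members, Ngfr, pathway genes called with groups that did not overlap, the 5 genes nearest to Hes1 and defining markers; other pathway and overlapping genes were named after their values were seen. 1 pathway gene is counted but not reported here. The replicate numbers of the titles were not used to pair the samples in the fit reported here.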

Additional observations from a re-analysis of the deposited data

How the results depend on the processing

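The genes were chosen on this contrast, so their values across settings are a description. The log2 difference of Hes1 lay between -2.85 and -1.72 over 19 alternatives. Notch2 was called in 12 of 18 alternatives and Dll4 in 9 of 18; Dll4 lost its call on leaving out any library but WT replicate 3, and Notch2 without WT replicate 1, Ngfr KO replicate 1 or Ngfr KO replicate 3. All 2844 calls became 535 (41.2% of 1297 genes) when 10 or more was required in 3 samples, with 1 pathway gene lower and 2 higher, and 4881 with array weights; the first tests fewer genes, and the cause of the second was not tested. Without a filter, 10 pathway genes were called lower and 2 higher; edgeR called 11 lower. Removal of the trend with exon length, chosen after seeing the data, left 4 called higher. Leaving out 1 library gave 1614 to 3006 calls, 10 to 16 pathway genes lower and 2 to 7 higher, with the fewest without Ngfr KO replicate 2; WT replicate 1 (1870) and Ngfr KO replicate 1 (1803) also moved the count by over 1.5 times. As a replicate block, the replicate numbers gave 2717 calls, 14 pathway genes lower and 5 higher. No Ngfr KO sample has the number 4, so WT replicate 4 did not enter that contrast. The log2 difference of Hes1 was -2.28 both with the block and without WT replicate 4. Same-numbered samples had correlations of their deviations of 0.30, -0.06 and -0.01, and pairs with different numbers had -0.20 to 0.11. Whether same-numbered samples were handled together cannot be told from these values. Scaling moved the median of all genes by less than 0.1 on the log2 scale. Depth limits Hey1, Notch3, Notch4 and Jag2.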

Other observations

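Genes of arterial endothelium, where Notch signalling is active in development, did not move together. Of 5 tested arterial markers, limma called 3 lower and 1 higher, against 15.8% lower and 18.3% higher among all genes tested. Bmx, a kinase gene, lay between 3.14 and 5.24 in WT samples and between 0.480 and 1.36 in Ngfr KO samples, with a log2 difference of -1.51 (limma adjusted p = 4.26e-04), and Unc5b, a netrin receptor gene, had a log2 difference of -1.06 (limma adjusted p = 0.00145). The third gene called lower was Efnb2. Gja4, which encodes the gap junction protein connexin 37, went the other way, from 4.11, 10.4, 19.3 and 20.9 in WT to 57.3, 89.7 and 70.9 in Ngfr KO, a log2 difference of 2.51 (limma adjusted p = 0.00134). Its value alone made the summed arterial list higher in Ngfr KO (62.7 to 93.2) than in WT (21.4 to 37.4). Sox17 and Gja5, markers of arteries, stayed below a value of 0.2 in all 7 samples.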
